A study of Mus musculus with 250 samples.

Results

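Nnat-high and Nnat-low astrocytes are the upper and lower terciles of single mouse brain cells by their own level of Nnat, the gene of neuronatin. Within each of 2 plates the cells were ranked by Nnat counts per 1000000 reads (CPM), and the upper and lower terciles were set against each other. They are 83 Nnat-high and 83 Nnat-low cells of 250 in all: 54 and 54 of 162 cells on plate 2, and 29 and 29 of 88 cells on plate 3. The remaining 84 cells form the middle tercile. All cells came from the brain of C57BL/6 mice of the genotype SM22-Cre;Rosa26-stop-tdTomato, adults of about 3 months per the series' design text. In this line Cre under the promoter of the smooth muscle gene Tagln (SM22) switches on a red fluorescent protein. Cells were sorted by fluorescence into plates, with a gate the labels do not describe, and read with Smart-seq2, a full-length method without molecular identifiers. The labels title every cell an astrocyte, give the header names a VSMC prefix, and name no animal; the cells therefore count as a single group with no replicate. Since the cells were selected on measured Nnat CPM and cells are not replicates, no test, p-value or standard error is given, and every difference below is a description of these 166 cells.

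Neuronatin is a small proteolipid of the endoplasmic reticulum membrane. In mice it has been tied to calcium handling by the sarco/endoplasmic reticulum calcium pump and, in pancreatic beta cells, to the signal peptidase that processes newly made secreted proteins. Nnat is imprinted, with expression from the paternal copy, and it lies inside an intron of Blcap, which runs on the opposite strand. It is abundant in developing brain and is known mostly from neurons and endocrine cells.

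Nnat lies on chromosome 2 at 157560078 to 157562522 on the plus strand, within Blcap at 157556362 to 157571274 on the minus strand (GENCODE M21, GRCm38). The other genes shown cell by cell are, in the same annotation, Cd9 on chromosome 6 at 125460266 to 125494791, Igfbp2 on chromosome 1 at 72824503 to 72852474, Sparc on chromosome 11 at 55394500 to 55423183, Agt on chromosome 8 at 124556534 to 124569706, Htra1 on chromosome 7 at 130936111 to 130985660 and Slc38a3 on chromosome 9 at 107650634 to 107669530. Promoters are shown for Nnat, which defines the groups, and for Cd9 and Igfbp2, which stood among the genes furthest apart between them in each direction. Each window is 300 bases of RefSeq's GRCm38.p6, from 250 bases before to 50 bases after the start, written 5′ to 3′ on the gene's strand. Capitals mark each CG dinucleotide, the site of DNA methylation, which reads the same on both strands. The windows are chr2:157559828-157560127 on the plus strand for Nnat, chr6:125494711-125495010 on the minus strand for Cd9 and chr1:72824230-72824529 on the plus strand for Igfbp2, the first of 2 entries for that gene.
Nnat: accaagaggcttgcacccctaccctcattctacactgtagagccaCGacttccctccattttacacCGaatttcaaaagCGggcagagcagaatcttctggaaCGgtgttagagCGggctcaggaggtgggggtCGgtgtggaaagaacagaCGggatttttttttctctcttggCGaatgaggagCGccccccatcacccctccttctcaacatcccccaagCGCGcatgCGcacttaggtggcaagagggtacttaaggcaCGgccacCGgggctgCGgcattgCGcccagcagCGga
Cd9: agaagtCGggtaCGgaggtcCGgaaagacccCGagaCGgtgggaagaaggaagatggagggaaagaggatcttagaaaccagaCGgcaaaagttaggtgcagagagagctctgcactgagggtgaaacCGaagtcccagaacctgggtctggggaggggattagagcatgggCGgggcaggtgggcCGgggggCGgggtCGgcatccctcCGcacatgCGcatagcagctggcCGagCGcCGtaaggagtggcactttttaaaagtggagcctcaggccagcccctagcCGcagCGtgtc
Igfbp2: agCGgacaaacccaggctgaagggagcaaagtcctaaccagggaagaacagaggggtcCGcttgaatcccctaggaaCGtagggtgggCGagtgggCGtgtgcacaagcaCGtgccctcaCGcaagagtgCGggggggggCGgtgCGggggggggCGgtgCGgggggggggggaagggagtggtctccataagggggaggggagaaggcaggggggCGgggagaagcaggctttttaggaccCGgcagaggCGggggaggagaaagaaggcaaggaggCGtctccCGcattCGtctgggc
The Nnat window held 17 CG dinucleotides and that of Cd9 held 18, as did that of Igfbp2. The median over 32851 promoter windows was 7, and 31.4% of all windows held as many as Nnat or more. The letters TATAAA on either strand occurred in 0 of these 3 windows and in 13.6% of all windows. These counts describe the letters of the windows, and no methylation was measured in these cells.

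Nnat itself ran from very many reads in a cell to none. On plate 2 the Nnat-high cells had 1976, 2968 and 9347 CPM (lowest, median and highest cell), against 0, 3.87 and 402 CPM in the Nnat-low cells. On plate 3 the Nnat-high cells had 720, 1973 and 5675 CPM, against 0, 0 and 38.7 CPM in the Nnat-low cells. The terciles were therefore set at other levels on the 2 plates: 25 of 29 Nnat-low cells on plate 3 lay below 10 CPM, while 32 of 54 on plate 2 did. No Nnat read was counted in 15 of those 29 cells and in 21 of those 54. At the upper border of plate 2 the lowest Nnat-high cell had 1976 CPM and the highest middle cell 1973 CPM. At its lower border the lowest middle cell had 414 CPM and the highest Nnat-low cell 402 CPM. On plate 3 these borders were 720 against 715 CPM and 53.9 against 38.7 CPM. The borders thus cut a continuous range, apart from the wide fall towards 0 among the lowest cells.

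**Figure D1:**
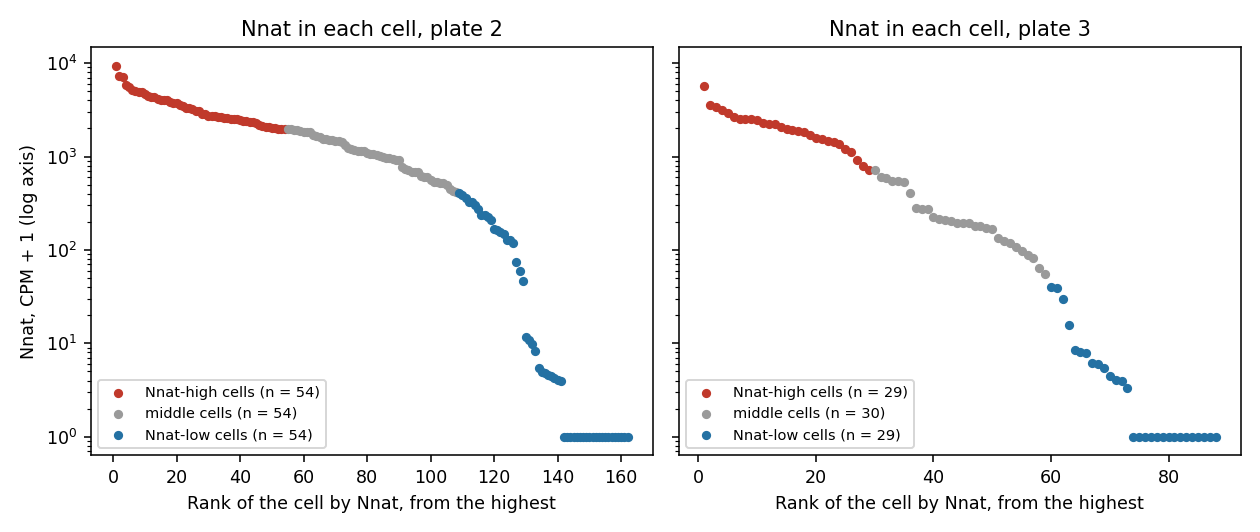
Nnat in each cell by rank within its plate, as CPM + 1 on a log axis, with the highest rank at the left; each point is a cell, and colour marks the terciles. On plate 2 the middle tercile spans 414 to 1973 CPM without a gap at either border, and on plate 3 it spans 53.9 to 715 CPM.

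Both groups carried the astrocyte programme. The summed level of 16 astrocyte markers had medians of 43236 CPM in Nnat-high cells and 45655 CPM in Nnat-low cells on plate 2, and of 45861 and 47252 CPM on plate 3. Nnat-high cells were read somewhat deeper: the median Nnat-high cell had 270745 reads on plate 2 and 422501 on plate 3, against 229458 and 337967 reads in Nnat-low cells. Genes detected at 10 CPM had medians of 2282 and 2515 in Nnat-high cells, against 2407.5 and 2462 in Nnat-low cells. Over all cells of a plate, Spearman's rho of Nnat with total reads was 0.166 (n = 162) and 0.292 (n = 88), and with genes detected -0.178 and -0.0249. Markers of another cell type, at least 3 of 1 type in a cell, were seen in 15 of 54 Nnat-high and 15 of 54 Nnat-low cells on plate 2. On plate 3 they were seen in 8 of 29 Nnat-high and 4 of 29 Nnat-low cells. Over both plates these were 23 of 83 Nnat-high cells (27.7%, exact 95% interval 18.4 to 38.6%) and 19 of 83 Nnat-low cells (22.9%, 14.4 to 33.4%). These intervals, and those of other shares of cells below, cover counting error only and compare no groups, since cells are not replicates. Among 9 lists of markers of other cell types, the ependymal and tanycyte list had the widest difference in CPM, with summed medians of 464 and 719 CPM in Nnat-high cells, against 127 and 130 CPM in Nnat-low cells. Its ranges were 0 to 3626 and 0 to 4812 CPM in Nnat-high cells, against 0 to 1356 and 0 to 2221 CPM in Nnat-low cells. Most of this was Vcam1, an adhesion gene with 8110 and 9512 reads in Nnat-high cells, against 4330 and 6092 reads in Nnat-low cells. The list's ciliary markers Foxj1, Ccdc153 and Tmem212 together had at most 68 reads in the Nnat-high or the Nnat-low cells of a plate. They speak for the ciliated part of the list only. Its member Col23a1 had 549 and 322 reads in Nnat-high cells on plates 2 and 3, against 73 and 48 in Nnat-low cells. Rarres2, described at the end, was higher too. Prlr went the other way, with 0 and 1 reads against 1 and 118, as did Scn7a on plate 2, with 0 against 11. After thinning to 100000 reads, 30 of the 30 genes named below as furthest up or down kept their direction on both plates. The same held with terciles made separately among cells above and below the plate's median of total reads, or of genes detected. Whether depth or gene number had a part in the sizes of the differences below was not tested. Without the 62 cells of all terciles that carried markers of another type, 29 of the 30 genes named below as furthest up or down kept their direction on both plates. These 30 genes were picked from the same cells for large ratios in the same direction on both plates. That they kept it was thus largely fixed in advance, and it does not test a part of depth or of other cell types.

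Across the transcriptome the difference between the groups was modest, and its direction was shared by the plates most often among abundant genes. Of 3850 genes tested (mean of 50 CPM or more over all cells, Nnat left out), 973 (25.3%) were higher in Nnat-high cells on both plates, 1125 (29.2%) were lower on both, and 1752 did not share a direction. A gene was called when its mean differed by 1.5-fold or more in the same direction on both plates, on the scale of log2 of mean CPM + 1. This held for 218 genes higher (5.66%) and 197 lower (5.12%) in Nnat-high cells. Direction was shared by 51.0% of the 2039 genes of 50 to 100 CPM, by 55.9% of the 1403 genes of 100 to 300 CPM and by 67.4% of the 408 genes of 300 CPM or more, a split into levels made after the data had been seen. A call on a gene of 50 to 100 CPM therefore says little by itself. At 300 CPM or more, 16 of the 408 genes were called higher and 17 lower. Of the 2039 genes of 50 to 100 CPM, 140 were called higher and 134 lower. Calls were thus no more frequent among abundant genes than among all genes (5.66% and 5.12%). In no gene were the groups separate on either plate (0 of 3850), so every gene below overlaps between Nnat-high and Nnat-low cells.

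One plate can be read against the other, since each was split on its own cells. On plate 2 alone, 46.3% of all genes were higher and 53.7% lower in Nnat-high cells, and on plate 3 49.8% were higher and 50.2% lower. Of 629 genes higher by 1.5-fold on plate 2, 379 (60.3%) were higher on plate 3, and of 766 lower, 414 (54.0%) were lower there. In the other direction, 484 of 914 (53.0%) and 534 of 935 (57.1%) kept their direction. At 300 CPM or more these shares were 35 of 40 genes (87.5%), 44 of 55 (80.0%), 42 of 55 (76.4%) and 44 of 51 (86.3%). The abundant genes that set the groups apart on one plate thus mostly leaned the same way on the other, while over all levels genes past 1.5-fold on one plate did so in 53.0 to 60.3% of cases, against 46.3 to 53.7% of all genes that lay on a given side on a plate.

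**Figure D2:**
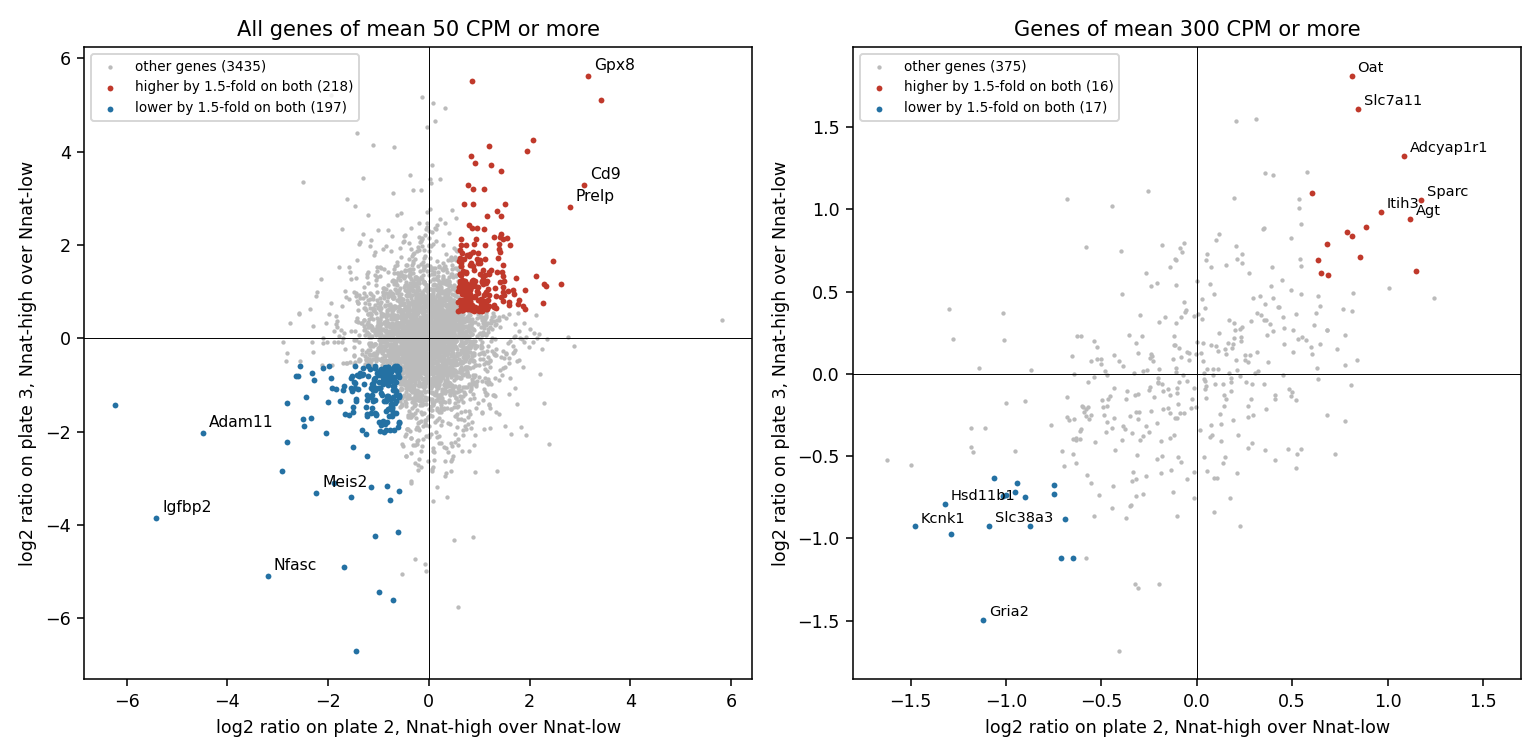
Log2 ratio of mean CPM + 1, Nnat-high over Nnat-low cells, on plate 2 (x axis) and plate 3 (y axis) for all genes tested and for those of 300 CPM or more, with other axis limits; each point is a gene, and red and blue mark the called genes. Pearson's r across genes was 0.14 over all 3850 genes and 0.51 over the 408 abundant ones, and genes are not independent replicates.

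Several of the abundant genes higher in Nnat-high cells code for secreted proteins. Sparc, a secreted matrix-binding glycoprotein, had 1443, 4181 and 13970 CPM in Nnat-high cells, against 9.36, 1737 and 6933 CPM in Nnat-low cells on plate 2 (lowest, median and highest cell). On plate 3 it had 65.9, 4227 and 10151 CPM in Nnat-high cells, against 391, 2045 and 5198 CPM in Nnat-low cells. In all, 53 of 54 Nnat-high cells on plate 2 and 26 of 29 on plate 3 lay above the median of the Nnat-low cells of their plate, and the log2 ratio of means was 1.18 on plate 2 and 1.06 on plate 3. Agt, the gene of angiotensinogen, the precursor of angiotensin that astrocytes make in the brain, had 546, 5333 and 15713 CPM in Nnat-high cells, against 0, 2156 and 13066 CPM in Nnat-low cells on plate 2. Plate 3 gave 566, 5815 and 13486 CPM in Nnat-high cells, against 297, 2702 and 7445 CPM in Nnat-low cells. Its log2 ratio was 1.12 on plate 2 and 0.94 on plate 3, and 51 of 54 Nnat-high cells on plate 2 and 26 of 29 on plate 3 lay above the median of the Nnat-low cells of their plate. Itih3, which codes for a heavy chain of the inter-alpha-trypsin inhibitor that binds hyaluronan, averaged 6253 ± 4239.7 and 5669 ± 4426 CPM in Nnat-high cells of plates 2 and 3, against 3199 ± 4525 and 2869.6 ± 2515 CPM in Nnat-low cells (mean ± SD between cells, n = 54 cells in each group on plate 2 and 29 on plate 3), with log2 ratios of 0.97 and 0.98. Apoe, the main lipid carrier of the brain, differed less, with log2 ratios of 0.40 and 0.65, averaging 20982 ± 6655 and 24937 ± 8054 CPM in Nnat-high cells of plates 2 and 3, against 15946 ± 7463 and 15864 ± 5784 CPM in Nnat-low cells. Sparc, Agt and Apoe were also, with Cd9 and the stearoyl-CoA desaturase gene Scd2, the 5 genes whose level followed Nnat most closely over all cells of both plates. Spearman's rho with Nnat was 0.543 and 0.462 for Sparc, 0.476 and 0.433 for Agt and 0.546 and 0.465 for Cd9 (n = 162 and 88 cells), which share their library and depth with Nnat.

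Of 13 matrix and secreted genes tested, 9 were higher and 3 lower on both plates, with a median log2 ratio of 0.41 against -0.05 over all genes tested, of which 25.3% were higher and 29.2% lower on both plates. At 1.5-fold on both plates, 3 of the 13 were called higher and 1 lower. Those higher included Cst3, the protease inhibitor cystatin C (0.68 and 0.27 on plates 2 and 3), the Sparc relative Sparcl1 (0.52 and 0.37) and Cpe, a carboxypeptidase that trims secreted peptides (0.53 and 1.01). Htra1, Bcan and Timp4 went the other way. Of 6 lipoprotein and lipid export genes 4 were higher and 2 lower: Pltp, the phospholipid transfer protein (1.52 and 2.87), Clu, which codes for clusterin (0.40 and 0.46), and the receptor gene Lrp1 (0.10 and 0.82) stood with Apoe, while the cholesterol-esterifying enzyme gene Lcat (-1.17 and -0.47) and the exporter gene Abca1 (-0.32 and -0.23) were lower. The lists were chosen with earlier results of these cells known, so their direction is no independent evidence.

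**Figure D3:**
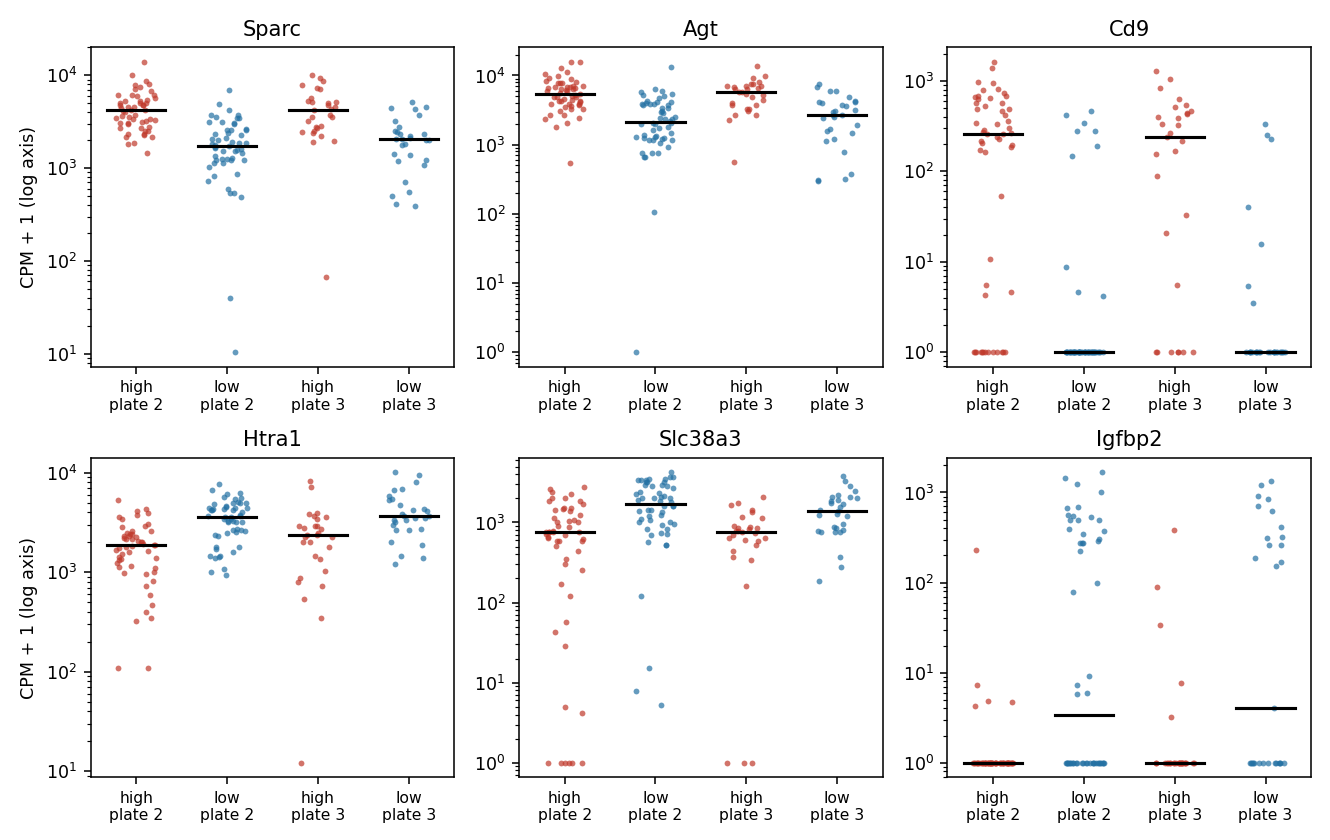
Level of 3 genes higher (top) and 3 lower (bottom) in Nnat-high cells, as CPM + 1 on a log axis for each cell of the Nnat-high and Nnat-low groups of both plates, with the median as a bar. The groups overlap for each of the 6 genes; Sparc, Agt, Htra1 and Slc38a3 shift over most cells, and Cd9 and Igfbp2 differ in how many cells have any reads.

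Most receptor genes tested were higher too. Of 11 tested, 8 were higher and 1 lower on both plates, against 25.3% and 29.2% of all genes, with a median log2 ratio of 0.33, and 2 of the 11 were called higher at 1.5-fold. With each plate cut at its median of Nnat 6 of the 11 were higher and the median was 0.18, and without the cells that carried markers of another type 6 were higher and the median was 0.23. Ntrk2, the receptor of brain-derived neurotrophic factor, averaged 3337 ± 1427 and 2934 ± 1662 CPM in Nnat-high cells of plates 2 and 3, against 2125 ± 1322 and 1915 ± 1132 CPM in Nnat-low cells, log2 ratios of 0.65 and 0.62. Grm3, a metabotropic glutamate receptor, had log2 ratios of 0.75 and 0.82, and Ednrb, the endothelin B receptor, had log2 ratios of 0.46 and 0.28. Gpr37l1, an orphan receptor of astrocytes, was the 1 lower, with log2 ratios of -0.38 and -0.33. Adcyap1r1, the receptor of the neuropeptide PACAP, was not on that list. It averaged 1262 ± 783 and 1643 ± 1059 CPM in Nnat-high cells of plates 2 and 3, against 595 ± 586 and 656 ± 599.5 CPM in Nnat-low cells, log2 ratios of 1.08 and 1.32. Among transporters, Slc1a3, the glutamate transporter GLAST, averaged 5632 ± 2982 and 4974 ± 2191 CPM in Nnat-high cells of plates 2 and 3, against 3515 ± 2392 and 2884 ± 2169 CPM in Nnat-low cells (0.68 and 0.79), and Slc7a11, the cystine-glutamate exchanger, had log2 ratios of 0.84 and 1.61. The other abundant genes called higher were Oat, Rpn2, Syt11, Fads1, Arl6ip1, Ctsl, Tmem66, Sfrp5 and Paqr6, with log2 ratios of 0.60 to 1.81 on the single plates. Adcyap1r1, Slc7a11 and these 9 genes were picked from the called genes after their values had been seen.

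Large ratios were found among genes with no read in many cells. Cd9 is the gene of a tetraspanin. At 10 CPM it was detected in 37 and 21 Nnat-high cells on plates 2 and 3, against 7 and 5 Nnat-low cells, of 54 cells in each group on plate 2 and 29 on plate 3. It had 0, 258 and 1619 CPM in Nnat-high cells, against 0, 0 and 464 CPM in Nnat-low cells on plate 2. The plate 3 cells had 0, 238 and 1286 CPM in Nnat-high cells, against 0, 0 and 331 CPM in Nnat-low cells. Its log2 ratios were 3.08 and 3.29. Prelp, a leucine-rich matrix proteoglycan, was detected in 30 and 6 Nnat-high cells on plates 2 and 3, against 5 and 1 Nnat-low cells, with log2 ratios of 2.80 and 2.81. Gpx8, a peroxidase of the endoplasmic reticulum, was detected in 15 and 5 Nnat-high cells on plates 2 and 3, against 2 and 0 Nnat-low cells. It had 142 ± 302 CPM in Nnat-high cells and 14.9 ± 75.9 CPM in Nnat-low cells on plate 2, a log2 ratio of 3.17. On plate 3 it had 967 reads in Nnat-high cells and 2 reads in Nnat-low cells, a ratio of 407 after scaling to the pooled reads of each group, with an exact 95% counting interval of 112 to 3362 that does not cover the spread between cells. App, the amyloid precursor protein, was detected in 18 and 8 Nnat-high cells on plates 2 and 3, against 10 and 1 Nnat-low cells. Fewer Nnat-low than Nnat-high cells had each of these genes on both plates, but for Gpx8, App and Prelp the plate 3 values rest on 5, 8 and 6 Nnat-high cells.

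The other 11 of the 15 genes named as furthest up had log2 ratios between 1.41 and 4.01 on the single plates. They were Smim15, the heme-binding membrane protein gene Pgrmc1, the receptor-sorting gene Gprasp1, Pltp, the helicase-like gene Dhx32, the calcium/calmodulin kinase subunit gene Camk2d, Fam115a, the quinone oxidoreductase-like gene Cryzl1, the cytochrome P450 gene Cyp4v3, the membrane-actin linker gene Ezr (ezrin) and the scavenger receptor gene Scara3. Pgrmc1 averaged 218 ± 335 and 223 ± 351 CPM in Nnat-high cells of plates 2 and 3, against 70.8 ± 173 and 55.1 ± 199 CPM in Nnat-low cells. Pltp was detected in 26 and 20 Nnat-high cells on plates 2 and 3, against 14 and 9 Nnat-low cells. Smim15, Dhx32 and Cyp4v3 had rho values with Nnat between 0.014 and 0.203 over all cells of a plate, so their ratios came with little ordering over the cells as a whole.

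Neuronatin's own compartment was read through 16 genes of the signal peptidase, the translocon and protein folding in the endoplasmic reticulum. Of these, 7 were higher on both plates, 1 was lower and 8 differed in direction, against 25.3% higher and 29.2% lower of all genes. At 1.5-fold on both plates 3 were called higher, against 5.66% of all genes. The median log2 ratio was 0.16, with 0.36 on plate 2 and 0.02 on plate 3, against -0.06 and -0.01 over all genes tested. The signal peptidase subunit genes Spcs2 (0.43 and 0.70), Spcs3 (0.63 and 1.72) and Sec11c (0.17 and 0.48) were among those higher, and Spcs1 (0.39 and -0.14) and Sec11a (0.11 and -1.19) had opposite signs on the plates. The disulfide isomerase genes Pdia4 (0.61 and 0.82) and Pdia6 (0.72 and 0.70) and the chaperone gene Hspa5 (0.55 and 0.23) were higher, and Ssr2, a subunit of the translocon-associated complex, was lower (-0.21 and -1.13). Rpn2, a subunit of the oligosaccharyltransferase that adds sugars to new secreted proteins, averaged 741 ± 561 and 509.9 ± 424 CPM in Nnat-high cells of plates 2 and 3, against 399 ± 428 and 275 ± 352 CPM in Nnat-low cells. Genes of calcium handling gave no common direction: of 5 tested, the pump gene Atp2a2 (0.19 and 0.31) and the plasma membrane pump gene Atp2b1 (0.97 and 0.65) were higher, and the calcium channel gene Itpr2 (-0.52 and -0.35) and Calr, which codes for calreticulin (-0.23 and -0.24), were lower.

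**Figure D4:**
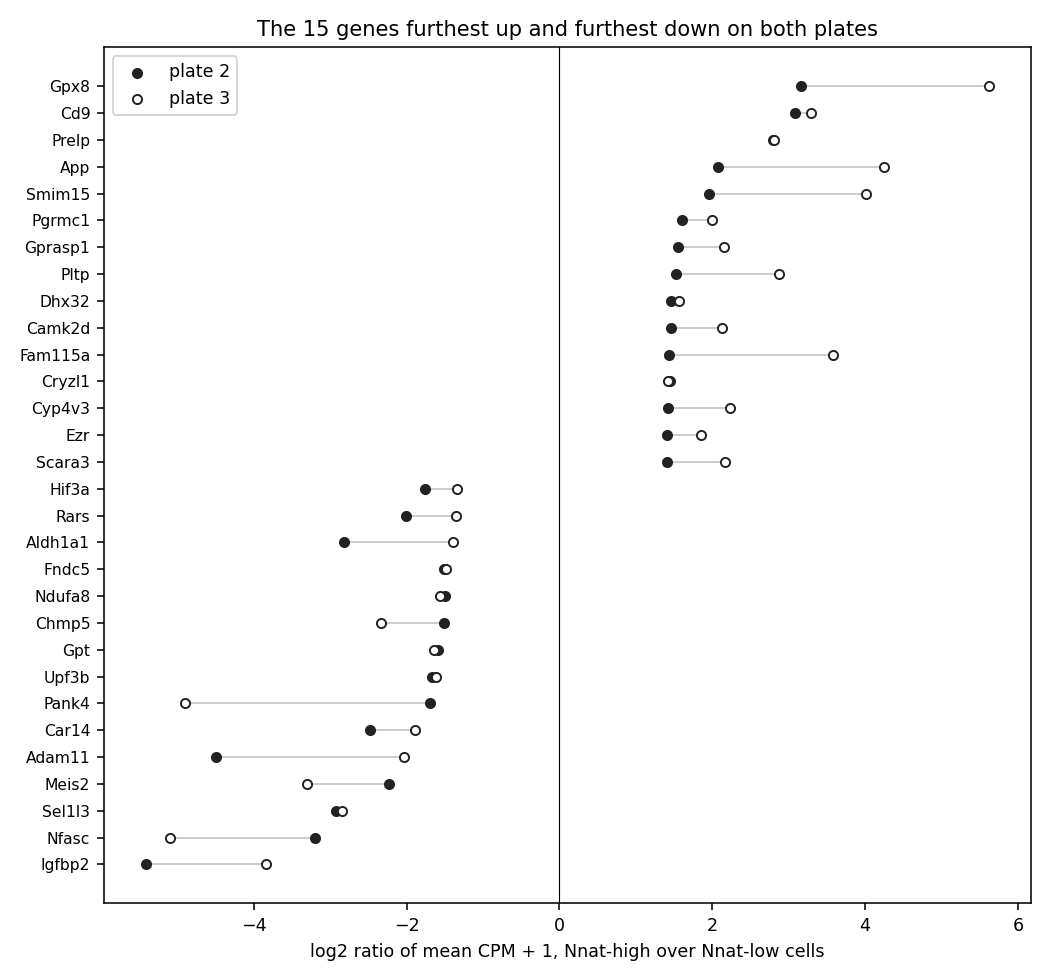
Log2 ratio of mean CPM + 1, Nnat-high over Nnat-low cells, for the 15 genes furthest up and the 15 furthest down by the smaller of their ratios on the plates; filled points are plate 2 and open points plate 3. Cd9, Prelp and Cryzl1 have nearly the same ratio on both plates, while Pank4, Adam11 and Gpx8 (2 Nnat-low reads on plate 3) differ most between plates.

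Among abundant genes lower in Nnat-high cells, the protease Htra1 and the transporter Slc38a3 differed over most cells. Htra1, a secreted serine protease, had 108, 1863 and 5344 CPM in Nnat-high cells, against 939, 3614 and 7788 CPM in Nnat-low cells on plate 2. On plate 3 it had 11.1, 2361 and 8281 CPM in Nnat-high cells, against 1203, 3686 and 10093 CPM in Nnat-low cells. In all, 49 of 54 Nnat-high cells on plate 2 and 24 of 29 on plate 3 lay below the median of the Nnat-low cells of their plate, with log2 ratios of -0.90 and -0.75. Slc38a3, which carries glutamine across the astrocyte membrane, had 0, 754 and 2812 CPM in Nnat-high cells, against 4.30, 1698 and 4215 CPM in Nnat-low cells on plate 2. Plate 3 gave 0, 765 and 2055 CPM in Nnat-high cells, against 182, 1409.6 and 3818 CPM in Nnat-low cells. Its log2 ratios were -1.09 and -0.92, and 46 of 54 Nnat-high cells on plate 2 and 25 of 29 on plate 3 lay below the median of the Nnat-low cells of their plate. These 2 genes, the AMPA receptor subunit gene Gria2 (log2 ratio on plate 2 -1.12) and Igfbp2 were among the 5 genes of lowest rho with Nnat over all cells: -0.527 and -0.414 for Htra1, and -0.466 and -0.387 for Slc38a3.

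Other abundant genes called lower spanned channels, adhesion and metabolism. Kcnk1, a two-pore potassium channel gene, averaged 203 ± 286 and 264 ± 266 CPM in Nnat-high cells of plates 2 and 3, against 569 ± 505 and 502 ± 431 CPM in Nnat-low cells. Omg, the gene of the oligodendrocyte-myelin glycoprotein, had log2 ratios of -1.29 and -0.97. The summed level of 11 oligodendrocyte markers had medians of 964 and 726 CPM in Nnat-high cells, against 883 and 546 CPM in Nnat-low cells on plates 2 and 3. Hsd11b1, whose enzyme regenerates active glucocorticoid, averaged 344 ± 473 and 490.0 ± 558 CPM in Nnat-high cells of plates 2 and 3, against 861 ± 1063 and 848 ± 1042 CPM in Nnat-low cells, with medians on plate 3 that were close, 418 CPM in Nnat-high cells against 414 CPM in Nnat-low cells. Pygm, the muscle-type glycogen phosphorylase that astrocytes also express, had log2 ratios of -0.75 and -0.73, and Idh3b, a subunit of isocitrate dehydrogenase, averaged 273 ± 359.6 and 340.4 ± 383 CPM in Nnat-high cells of plates 2 and 3, against 548 ± 566 and 567 ± 579.8 CPM in Nnat-low cells. The rest of the 17 were Elmo2, Ank2, Uqcrfs1, Sept7, Btbd17, Arhgap5, Tagln3, Ddhd1 and Slc20a1, with log2 ratios of -1.12 to -0.63 on the single plates. These genes too were picked from the called genes after their values had been seen.

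Igfbp2 ranked first among the genes named as furthest down. Igfbp2, a secreted protein that binds insulin-like growth factors, was detected in 1 and 3 Nnat-high cells on plates 2 and 3, against 23 and 14 Nnat-low cells. It had 0, 0 and 231 CPM in Nnat-high cells, against 0, 2.41 and 1669 CPM in Nnat-low cells on plate 2. On plate 3 it had 0, 0 and 380.0 CPM in Nnat-high cells, against 0, 3.03 and 1346 CPM in Nnat-low cells, and its log2 ratios were -5.41 and -3.84. The middle tercile lay between, with means of 57.6 and 109 CPM. Aldh1a1, an enzyme that makes retinoic acid, was detected in 6 and 11 Nnat-high cells on plates 2 and 3, against 28 and 16 Nnat-low cells (-2.82 and -1.39). Meis2, a homeodomain transcription factor gene, was detected in 6 and 2 Nnat-high cells on plates 2 and 3, against 19 and 9 Nnat-low cells (-2.23 and -3.31). Nfasc, which codes for the adhesion protein neurofascin, was detected in 8 and 1 Nnat-high cells on plates 2 and 3, against 27 and 9 Nnat-low cells (-3.20 and -5.10). Each was thus read in fewer Nnat-high than Nnat-low cells on both plates.

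The other 11 genes furthest down were Sel1l3, the inactive metalloprotease-like gene Adam11, Car14, a carbonic anhydrase that faces the outside of the cell, the pantothenate kinase family gene Pank4, Upf3b of nonsense-mediated decay, the alanine aminotransferase gene Gpt, the ESCRT-III gene Chmp5, the complex I subunit gene Ndufa8, Fndc5, the precursor of irisin, the arginyl-tRNA synthetase gene Rars and the hypoxia-inducible factor gene Hif3a. Their log2 ratios ran from -4.91 to -1.35 on the single plates. Fndc5 was detected in 8 and 8 Nnat-high cells on plates 2 and 3, against 29 and 14 Nnat-low cells, and Car14 in 4 and 3 Nnat-high cells on plates 2 and 3, against 18 and 13 Nnat-low cells. Gpt averaged 31.2 ± 87.0 and 59.9 ± 128 CPM in Nnat-high cells of plates 2 and 3, against 95.8 ± 187 and 188 ± 256 CPM in Nnat-low cells. Of these, Sel1l3, Adam11 and Car14 each had 1 alternative setting in which the plates no longer shared a direction, and the mean ratio stayed negative in each of them.

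Genes of energy metabolism were mostly lower in Nnat-high cells, but few were called. At 1.5-fold on both plates, 1 of 13 respiratory chain genes and 1 of 15 glycolysis and glycogen genes were called lower, against 5.12% of all genes. Of 13 nuclear genes of the respiratory chain, 10 were lower on both plates and 1, Uqcrc1, was higher (0.24 and 0.73), with a median log2 ratio of -0.44 against -0.05 over all genes. Cox5a, a cytochrome oxidase subunit, averaged 123 ± 130.4 and 105 ± 113 CPM in Nnat-high cells of plates 2 and 3, against 222 ± 239 and 311 ± 266 CPM in Nnat-low cells (-0.84 and -1.56), and the ATP synthase subunit gene Atp5b had log2 ratios of -0.34 and -0.36. When the mean of log2(CPM + 1) was used in place of the mean CPM, 5 of the 13 were lower on both plates, with a median of -0.45. Of 15 glycolysis and glycogen genes, 11 were lower and 2, Hk1 and Aldoa, were higher, with a median of -0.31. Hk1 and Aldoa each kept that direction on both plates in 7 of 14 alternative settings. The lower ones included Pfkm (-0.56 and -0.66), a phosphofructokinase, Gpi1 (-0.50 and -0.45), the lactate dehydrogenase gene Ldha (-1.08 and -0.32) and the glycogen-targeting subunit gene Ppp1r3c (-0.41 and -1.68). All 3 metallothionein genes, whose products bind zinc and copper, were lower: Mt1 (-0.56 and -0.25), Mt2 (-0.48 and -0.35) and Mt3 (-0.63 and -0.54). Of 12 cholesterol synthesis genes 4 were lower, near the 29.2% of all genes that were lower, and 0 were higher, with a median of -0.17. Of 6 glucocorticoid and thyroid genes 4 were lower, 0 higher and 2 differed, with a median of -0.76.

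Of the 16 astrocyte markers, 7 were higher on both plates, 6 lower and 3 differed in sign between plates, with no common direction (median 0.06). Aqp4 (-0.61 and -0.33), the water channel, Glul (-0.31 and -0.27), which makes glutamine, S100b (-0.44 and -0.82) and Acsbg1 (-0.65 and -0.40) were lower, and Slc1a3, Fgfr3 (0.28 and 0.11) and Sox9 (0.32 and 0.02) were higher. In the glutamate and GABA list Slc1a3 and Slc38a3 were called in opposite directions, while Slc1a2, the other glial glutamate transporter, differed in sign between plates (-0.07 and 0.44). Of 8 potassium, water and bicarbonate genes 3 were higher and 4 lower: the potassium channel gene Kcnj10 (0.11 and 0.14) was higher, and Car2 (-1.62 and -0.52) and Atp1b2 (-0.39 and -0.40), a sodium pump beta subunit gene, were among those lower.

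**Figure D5:**
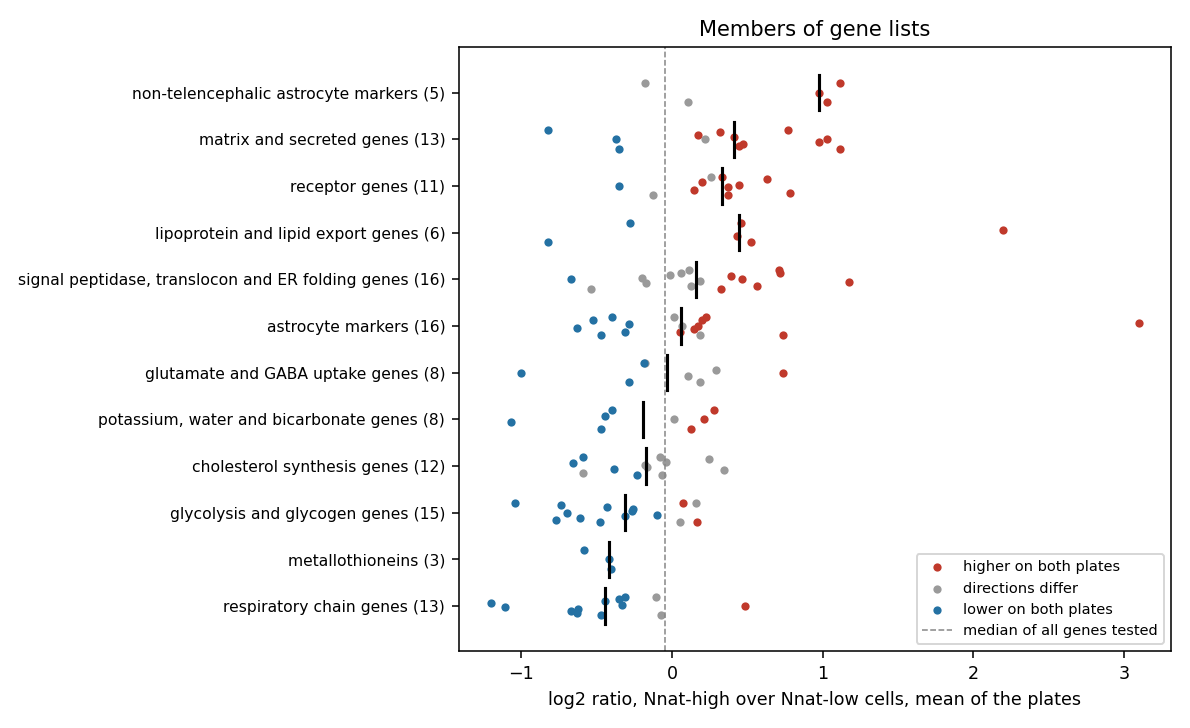
Members of 12 gene lists by log2 ratio, Nnat-high over Nnat-low cells, as the mean of both plates; each point is a gene tested, colour gives its direction on the plates, bars are list medians and the dashed line is the median of all genes (-0.05). Respiratory chain, glycolysis and metallothionein genes lie mostly left of the line and secreted, receptor and lipoprotein genes mostly right of it; the astrocyte marker far to the right is Gfap, whose plate 2 ratio is set by the pseudocount.

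Gfap, the intermediate filament gene of reactive and fibrous astrocytes, had 777 reads in Nnat-high cells and 0 reads in Nnat-low cells on plate 2. After scaling to pooled reads this was at least 231-fold more, against a floor of 3 reads over the group. That floor covers counting error only and not the spread between cells. On plate 3 Gfap was detected in 9 of 29 Nnat-high and 4 of 29 Nnat-low cells, with 86.3 ± 174 CPM in Nnat-high cells and 65.9 ± 189.6 CPM in Nnat-low cells. Gfap was higher on both plates in 12 of 14 alternative settings, with mean log2 ratios from 0.18 to 3.40. It was not with each plate cut at its median of Nnat, nor without the cells that carried markers of another type. One cell of the middle tercile, and so of neither group, held 30.1% of all Gfap CPM of the series. Serpina3n, a secreted protease inhibitor that rises in reactive astrocytes, was detected in 8 and 20 Nnat-high cells on plates 2 and 3, against 2 and 11 Nnat-low cells, with log2 ratios of 0.91 and 1.23. Fbln5, a secreted elastic-fibre protein, was detected in 14 and 6 Nnat-high cells on plates 2 and 3, against 2 and 2 Nnat-low cells, and 1 cell held 17.4% of its total. These were the 3 higher of 5 reactive astrocyte genes tested, and the other 2 differed in sign between plates: Amigo2 had log2 ratios of 1.38 and -1.62, and H2-K1, a class I histocompatibility gene, of -0.01 and 0.50. The median of the 5 was 1.07, and 0.18 with each plate cut at its median of Nnat. Of 4 markers of Gfap-high astrocytes tested, Gfap was the 1 higher, Id3 (-1.07 and -0.85) and Aqp4 were lower and Cryab (-2.31 and 0.26) differed in sign, with a median of -0.72. Among 7 Notch pathway genes, 3 were higher, 1 was lower and 3 differed. Hes5, a transcription factor gene switched on by Notch signalling, was detected in 26 and 25 Nnat-high cells on plates 2 and 3, against 11 and 14 Nnat-low cells, with log2 ratios of 1.39 and 1.91.

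Other imprinted genes had no common direction. Of 13 tested, 4 were higher, 2 lower and 7 differed, with a median of 0.09. Blcap, which surrounds Nnat, averaged 244 ± 334 and 214 ± 363 CPM in Nnat-high cells of plates 2 and 3, against 161 ± 252 and 142 ± 281 CPM in Nnat-low cells, log2 ratios of 0.60 and 0.58. Smart-seq2 does not mark the strand, and how reads of both strands were counted is not stated in the sources, so reads where the 2 genes overlap cannot be told apart. Ndn (0.34 and 1.81), Trappc9 (0.54 and 1.69) and Gnas (0.03 and 0.33) were higher on both plates, Ube3a (-1.06 and -1.12) and Kcnq1ot1 (-0.37 and -0.87) lower, and Peg3 (0.89 and -0.36) and Meg3 (1.82 and -1.90) had opposite signs. Of 6 genes that lie beside Nnat only Blcap reached 50 CPM. Of the others 3 had means of 20 CPM or more, and they were higher on both plates too: Ctnnbl1 (0.11 and 0.45), Tti1 (0.87 and 1.07) and Rprd1b (0.90 and 1.37). The median of these 4 neighbours was 0.78.

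Markers of astrocyte region differed between the groups in part. Agt, Itih3 and Sparc are known from astrocytes outside the telencephalon, and of the 5 such markers tested these 3 were called higher, against 5.66% of all genes. The GABA transporter gene Slc6a11 (0.22 and -0.01) and the glycine transporter gene Slc6a9 (-0.52 and 0.16) differed in sign (median of the 5, 0.97). The 3 called genes are the same as those called higher among the matrix and secreted genes, so the 2 lists do not count separate genes there. Of 3 telencephalic markers tested, Tril (-0.58 and -0.21) and Slc7a10 (-0.61 and -0.35) were lower and Mfge8 (0.65 and 0.18) was higher. For Itih3, itself 1 of these called genes, cells can also be counted. The upper tercile of a plate by Itih3 held 31 of 54 Nnat-high and 8 of 54 Nnat-low cells on plate 2, and 14 of 29 and 6 of 29 on plate 3. Over both plates it held 45 of 83 Nnat-high cells (54.2%, exact 95% interval 42.9 to 65.2%) and 14 of 83 Nnat-low cells (16.9%, 9.54 to 26.7%). Positional transcription factors were sparse. Any of 8 forebrain factors was detected in 14 of 54 Nnat-high and 13 of 54 Nnat-low cells on plate 2, and in 2 of 29 and 10 of 29 on plate 3. Any of 16 caudal and diencephalic factors was detected in 29 of 54 Nnat-high and 37 of 54 Nnat-low cells on plate 2, and in 20 of 29 and 21 of 29 on plate 3. Over both plates these were 49 of 83 Nnat-high cells (59.0%, 47.7 to 69.7%) and 58 of 83 Nnat-low cells (69.9%, 58.8 to 79.5%). The labels give no brain region, so region and Nnat level cannot be told apart in these cells.

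The middle tercile, which the calls did not use, lay between the other 2 groups for 143 of the 218 genes called higher (65.6%) on plate 2 and 119 (54.6%) on plate 3, against 38.5% and 37.4% of all genes tested. For the 197 genes called lower it did so for 130 (66.0%) and 117 (59.4%). The outer groups lie further apart for a called gene than for most genes, and the shares were not adjusted for this. For Sparc the means ran 4546, 2738 and 2011 CPM in Nnat-high, middle and Nnat-low cells on plate 2, and 4502, 2663 and 2165 CPM on plate 3. Slc38a3 ran the other way, with, in the same order of groups, 872, 1305 and 1856 CPM on plate 2 and 791, 1410.4 and 1501 CPM on plate 3. For some of the 15 genes furthest up the middle tercile did not lie between. For Camk2d, an example chosen after the values were seen, it averaged 52.8 and 191 CPM on the plates, below both other groups on plate 2 and above both on plate 3.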

How the data were processed

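The values of the first deposited table are read counts per gene and cell, whole numbers that the authors left without normalization. In their second deposited table the authors give a score, which is the count scaled to 500000 per cell and rounded, and this matched that calculation in 100% of entries within 0.5. STAR 2.4.2a and mm10 are named per the submitters' processing notes. No source used here gives the counter, strand handling, annotation or cell filter. The 250 cells had 102161 to 564958 reads (median 282290) over 24490 gene rows, and 0 columns were left unmatched. The plates share 36 well positions, and 0 pairs of cells were identical. No cell was removed and no doublet caller was run, since cells were sorted into single wells.

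From the counts, CPM was computed with each cell's total, and the whole part of n/3 cells at each end of Nnat CPM was taken per plate. Means over cells gave log2((mean CPM of Nnat-high cells + 1)/(mean CPM of Nnat-low cells + 1)) on each plate, which understates the change of low genes. The prefixes of the cell names were treated as plates. Named genes are Nnat, members of 37 lists, the 15 genes furthest up and down by the smaller ratio of the plates with no cell holding 10% or more of the total, and the 5 of highest and 5 of lowest smaller rho. The members and lists were chosen with earlier results of these data known. Of 381 listed genes 380 have a row. The 14 alternatives changed the cut on Nnat, the measure, depth, scaling, source table, filter, pseudocount and cells kept. One of them, 1000 CPM or more against under 10 CPM, was chosen after seeing the data. Python 3.11.15 with numpy 2.4.6, pandas 2.3.3 and scipy 1.17.1 was used, and the contrast was tested on simulated data. Intervals are exact (Clopper-Pearson) and cover counting error only: cells are not replicates, and reads without molecular identifiers are not independent molecules. Coordinates are from GENCODE M21 (GRCm38) and promoters from RefSeq's GRCm38.p6. Not every gene that qualified for naming is reported here.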

Additional observations from a re-analysis of the deposited data

How the results depend on the processing

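No paired analysis was possible because the result comes from no test. Of the 30 genes named as furthest up or down, 29 or 30 kept their direction on both plates under each of 14 alternatives. In 0 of them did the mean ratio reverse. These 30 were picked from the same cells for large ratios shared by the plates, so this was largely fixed in advance. Of 3206 ratios recomputed for 229 genes, 594 moved by more than the SD of the plates' ratios, and 0 of those called reversed. The median of all genes moved by 0.05 or less on the log2 scale. List medians moved by no more than the SD among their members in 331 of 336 recomputations. The cause of the following shifts was not tested except where fewer or more genes entered by construction. With each plate cut at its median of Nnat, 130 genes were called higher and 120 lower, and 64.8% of genes higher on plate 2 were higher on plate 3. With the upper and lower quartile of each plate, the middle cells lay between for 61.4% of genes called higher on plate 3. With means of log2(CPM + 1), 351 genes were called lower, and 67.2% of genes lower on plate 3 were lower on plate 2. After thinning to 100000 reads, the middle tercile lay between for 57.0% of genes called higher on plate 2. With terciles made separately among cells above and below the plate's median of genes detected, 56.2% of genes shared a direction. With genes of mean 20 CPM or more, 1801 genes were higher, 2064 lower, 579 called higher and 579 called lower; 55.5% of genes higher on plate 2 were higher on plate 3, and the middle tercile lay between for 56.5% of genes called higher and 56.5% called lower on plate 2 and 51.3% called lower on plate 3. With no filter, 3166 were higher, 3586 lower, 1206 called higher and 1227 called lower, and 41.3% shared a direction. The shares from one plate to the other were then 47.3% higher and 45.7% lower from plate 2, and 47.5% and 51.2% from plate 3. The middle tercile then lay between for 50.4% and 44.6% of genes called higher and 49.3% and 46.6% called lower on plates 2 and 3. Without the 62 cells with markers of another type, 55.9% of genes higher on plate 2 were higher on plate 3, and the middle tercile lay between for 57.7% of genes called lower on plate 2. With 1000 CPM or more against under 10 CPM, 57.8% of genes lower on plate 2 were lower on plate 3, 57.3% of genes higher on plate 3 were higher on plate 2, and the middle cells lay between for 57.3% of genes called higher and 57.8% called lower on plate 2. Genes of 50 to 100 CPM shared a direction in 51.0% of cases, and the part of depth in this was not tested.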

Other observations

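The chemokine-like adipokine gene Rarres2, a member of the ependymal and tanycyte list with a mean of 38.5 CPM over all cells, lay below the level at which genes were tested. It had 879 and 1110 reads in Nnat-high cells on plates 2 and 3, against 303 and 122 reads in Nnat-low cells, and was detected at 10 CPM in 27 of 54 and 15 of 29 Nnat-high cells, against 14 of 54 and 5 of 29 Nnat-low cells. Mest, an imprinted gene with a mean of 10.0 CPM, had 259 and 200 reads in Nnat-high cells, against 6 and 16 reads in Nnat-low cells, with 1 cell holding 35.5% of its total. On plate 2, 31 of 54 Nnat-high cells and 25 of 54 Nnat-low cells lay in rows A to H, and 24 Nnat-high and 31 Nnat-low cells in columns 1 to 12. On plate 3 these numbers were 14 and 14 of 29 for rows and 12 and 17 of 29 for columns.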
